A study of Mus musculus with 76 samples.

Results

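The TCA cycle and the mitochondrial oxidation of fatty acids were followed through 46 genes in visceral white adipose tissue (WAT) and liver of mice that differ at 1 position of the Fnip2 3′UTR. The genes were listed by symbol for their textbook roles, with earlier results of these data known, and no measured value entered the rule: 13 encode enzymes of the cycle, and the others encode Mdh1 and Pcx, the pyruvate dehydrogenase complex and its kinases, the carnitine shuttle, the enzymes of beta-oxidation and their electron acceptors, and the steps that lead propionate and branched-chain amino acids into the cycle. A gene was tested in a tissue where its mean normalized count (reads assigned to the gene, divided by 1 size factor per library) was at least 10, which kept 44 of the 46 genes in WAT, among 12798 genes tested there, and 44 in liver, among 11710. Slc22a5, a plasma membrane carnitine transporter, fell below the minimum in WAT with a mean of 4.18 ± 3.62 in Fnip2C/C (SD, n = 4) and 7.43 ± 6.64 in Fnip2T/T (n = 5). Pdk4 fell below it in liver with 4.99 ± 4.07 and 4.10 ± 2.30 (n = 5 each), and Cpt1b was not analysed here.

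All mice were females of C57BL/6 background with free access to food and drink, and the labels give no age. Fnip2T/T mice carry the ancestral T, and Fnip2C/C mice are homozygous for a CRISPR/Cas9 knock-in of the T-to-C change, which comes together with a G-to-C change that removes the guide's PAM, so the contrast is between both changes and neither. Fnip2 encodes a partner of folliculin in the amino acid sensing branch of mTORC1. WAT came from 4 Fnip2C/C and 5 Fnip2T/T mice and liver from 5 of each, 1 library per mouse and tissue, and 6 mice gave both tissues. Mice are named below by the number in their labels.

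In the matrix of mitochondria, acetyl-CoA made from pyruvate, fatty acids or branched-chain amino acids enters the TCA cycle by condensing with oxaloacetate, and the cycle returns the electrons to the respiratory chain. Fatty acids reach the matrix as carnitine esters and are shortened there by repeated rounds of dehydrogenation, hydration, dehydrogenation and thiolysis. White adipocytes use citrate from the cycle and propionyl-CoA from branched-chain amino acids for lipid synthesis and burn little fat, whereas hepatocytes and brown adipocytes oxidize fatty acids at a high rate.

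The libraries held 4180209 to 6277644 reads in WAT and 5583041 to 7523200 in liver. Fnip2 itself had normalized counts of 24.7, 30.9, 21.7 and 14.1 in the Fnip2C/C WAT libraries and 33.6, 26.3, 14.5, 42.6 and 24.3 in the Fnip2T/T ones, and the groups overlapped (log2 fold change -0.27, SE 0.35, limma with Benjamini-Hochberg adjustment, adjusted p = 0.58). In liver Fnip2 had 134, 133, 174, 137 and 197 in Fnip2C/C and 134, 115, 123, 98.8 and 49.2 in Fnip2T/T (log2 fold change 0.63, SE 0.23, adjusted p = 1). Such levels do not check the genotype, since the knock-in does not delete the gene. All 10 adipocyte markers had reads in WAT, and 7 of the 10 (Adipoq, Plin1, Lep, Fabp4, Lpl, Retn and Lipe) were lower in Fnip2C/C, although their summed level, which Cfd dominates, ran from 80092 to 252373 in Fnip2C/C and from 139528 to 227011 in Fnip2T/T. In liver the 6 hepatocyte markers summed to between 533614 and 723086 normalized counts in every library. The WAT library of Fnip2C/C mouse 593 stood apart with 24239 summed counts over 9 ovary markers, Cyp11a1 leading, against 33.5 to 118 in the other libraries. The summed level of 6 brown adipocyte markers was 10633 in Fnip2C/C mouse 638 and 4296 in Fnip2T/T mouse 658 against 552 to 1019 elsewhere, with Ucp1 at 476 and 1137 against 5.42 to 70.6. Cidea alone had 7507 of the sum in mouse 638. In that library Dio2 (7.03) and Elovl3 (12.9, against 16.5 in mouse 590) were not raised. Of the erythroid markers, 3 of 4 were lower in Fnip2C/C WAT, and their sum did not overlap (2853 to 3520 against 9346 to 11125). Neither did the sums of the 4 endothelial markers (547 to 1110.2 against 1282 to 1725, with Pecam1 and Tie1 of the 4 lower) and of the hepatocyte markers in WAT (203 to 659 against 833 to 2891, with Alb and Cyp2e1 lower). Cyp2e1 dominates this hepatocyte sum, with means of 365 in Fnip2C/C and 1372 in Fnip2T/T. Apoa1 had the higher mean in Fnip2C/C WAT (20.7 against 3.07) without passing the test. Of the fibroblast markers Pdgfra and Pi16 were higher, of the macrophage markers C1qa was higher and Adgre1 and Cd68 lower, and Trbc2 (lymphocytes) and Sox9 (cholangiocytes) were lower. Fnip2T/T mouse 609 had 2232 summed counts of 5 skeletal muscle markers in WAT against 25.0 to 262 in the other libraries. In the WAT table the columns stand in blocks by labelled genotype, whereas in the liver table, laid out in the same way by RNA number, the first block holds 2 Fnip2C/C and 3 Fnip2T/T livers and the other 3 and 2. The livers were used as labelled, the labels could not be checked from the levels, and all liver and tissue comparisons rest on them. The part of the markers in the differences below was not tested, and in bulk tissue fewer cells of a type and less RNA per cell cannot be told apart.

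In WAT, 21 of the 44 genes tested differed between the genotypes, 15 of them lower and 6 higher in Fnip2C/C (limma on log2(normalized count + 1), Benjamini-Hochberg adjusted p under 0.05 over all genes). This is 47.7% of the genes, and 32.1% of all genes tested were called in the same comparison. The share called lower was 34.1% against 17.0% of all genes, and the share called higher was 13.6% against 15.1%. The median log2 fold change was -0.26, against 0.02 over all genes, and the median size regardless of sign was 0.65 against 0.54. In 16 genes (36.4%, against 26.1% of all genes) every Fnip2C/C library lay on the same side of every Fnip2T/T library, and all 16 were called. Enzymes of the same route went in opposite directions, as the plot of the genotype differences by role shows. Within a complex, both directions passed the test only for Ogdh, which was higher, and Dlst, which was lower. In the other complexes no subunit with a higher mean in Fnip2C/C passed. When C/C mice 593 and 638 and T/T mouse 658, whose marker sums stood apart, were left out together, 9 genes were called, beside 9.95% of all genes: Idh2, Ogdh, Pdhb, Pdk2, Slc25a20, Etfdh, Mcee and Pccb remained and Pdha1 was added, and all 21 kept their sign. Of the 9, Ogdh, Pdk2, Etfdh and Pdha1 were higher and the others lower. With T/T mouse 609 left out as well, 15 genes were called, beside 16.1% of all genes, and 13 of the 21 remained. In both fits the calls were split almost evenly between lower and higher, unlike in the main fit. The shares of all genes called lower and higher in these fits are not given here. In the 16 genes without overlap, leaving out mice could not change the sign.

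**Figure D1:**
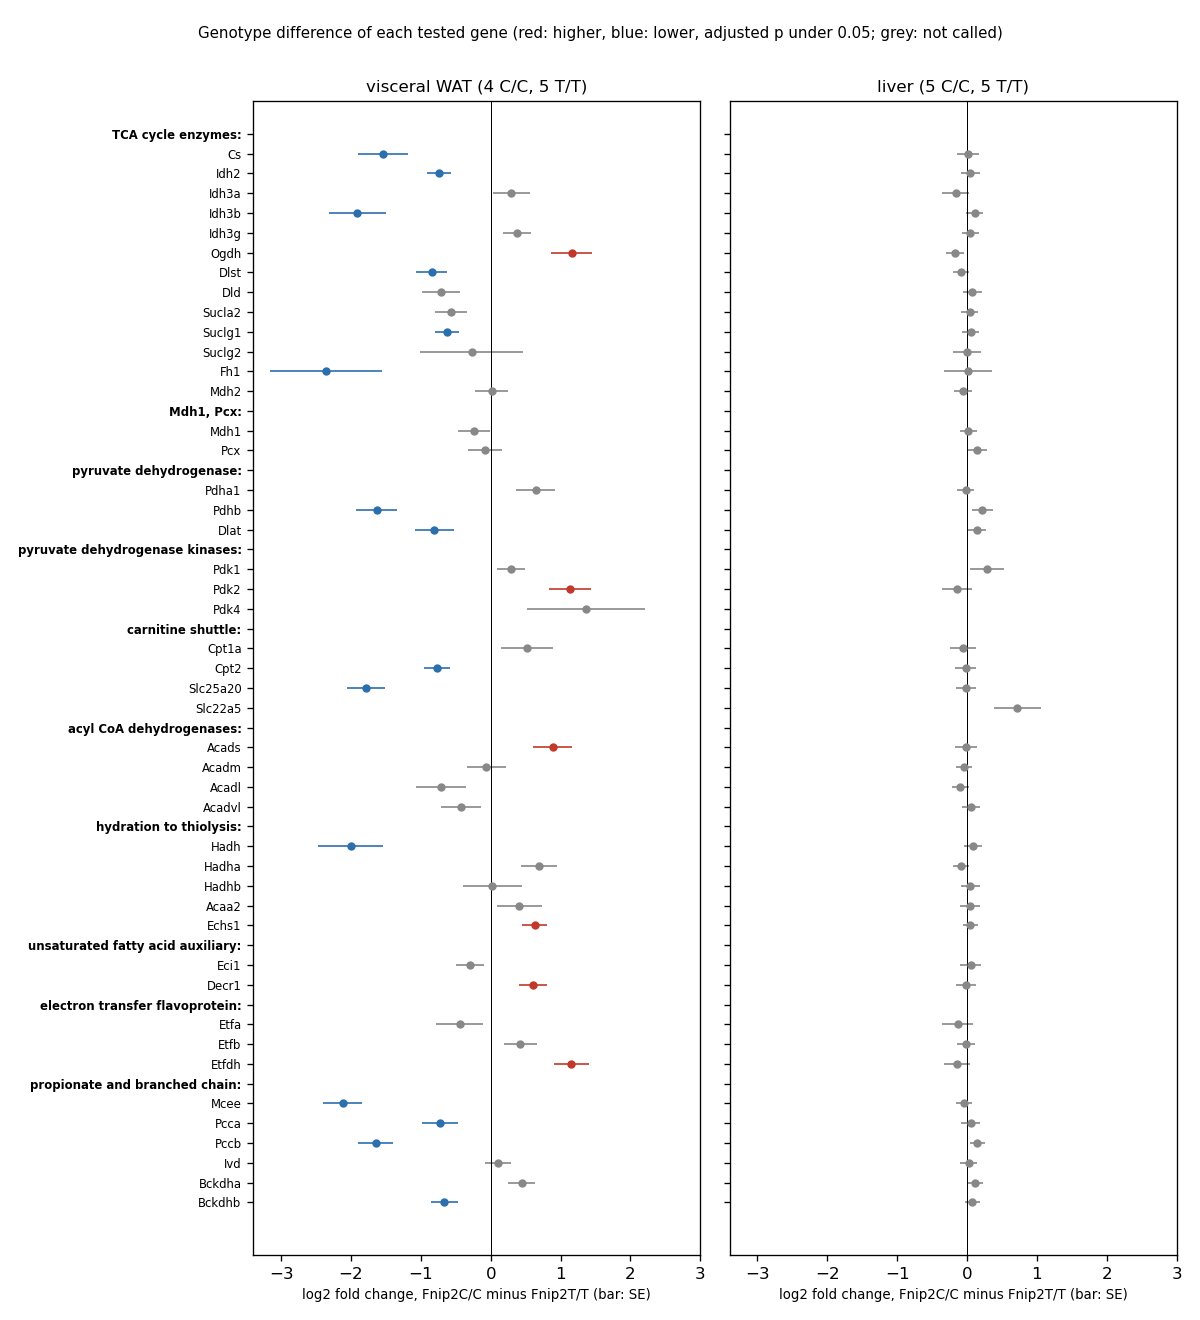
Log2 fold change, Fnip2C/C minus Fnip2T/T, of each gene tested in visceral WAT (left) and liver (right), ordered by role; points are limma estimates, bars are 1 SE, and red, blue and grey mark genes called higher, called lower and not called. In WAT 15 genes are blue, the lowest Fh1 at -2.36, and 6 are red, the highest Ogdh at 1.16, while no liver gene is called and all but Slc22a5 lie between -0.17 and 0.29.

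Of the 13 cycle enzymes, 6 fell and 1 rose in Fnip2C/C WAT. Citrate synthase (Cs), which makes citrate from oxaloacetate and acetyl-CoA, had 253, 109, 198 and 180.4 normalized counts in Fnip2C/C and 677, 336, 281, 555 and 1022 in Fnip2T/T. The highest Fnip2C/C library stayed below the lowest Fnip2T/T library, and the fall was 2.90-fold (log2 fold change -1.54, SE 0.36, adjusted p = 0.00719). The spread among Fnip2T/T mice was wide, with 608 and 609 far below 607, 657 and 658. The same pair of T/T mice was lowest in 11 of the 15 genes called lower, and mouse 658 was highest in 12 of them. Among Fnip2C/C mice, 593 was the lowest in 12. The summed level of 6 mesothelial markers was also low in T/T mice 608 and 609 (259 and 273). It was 803 to 1055 in 607, 657 and 658, and 423 to 1179 in the Fnip2C/C libraries. None of the 6 markers was called, and their part in the spread was not tested.

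Isocitrate is oxidized by a mitochondrial NADP enzyme, Idh2, and by an NAD enzyme built from Idh3a, Idh3b and Idh3g. Idh2 had 273, 273, 242 and 224 normalized counts in Fnip2C/C and 483, 366, 522, 393 and 363 in Fnip2T/T. It fell 1.67-fold, with tight and separate groups (log2 fold change -0.74, SE 0.17, adjusted p = 0.00685). Idh3b had 193, 73.0, 173 and 108 against 666, 254, 270.1, 582 and 982, which is a 3.76-fold fall (log2 fold change -1.91, SE 0.41, adjusted p = 0.00478). The catalytic subunit Idh3a (596 ± 232 against 468 ± 115) and the regulatory subunit Idh3g (1113 ± 225 against 854 ± 164) had higher means in Fnip2C/C and did not pass the test (log2 fold changes 0.29 and 0.38, adjusted p = 0.422 and 0.167). Reads of the 3 subunits compared inside a library, which needs no size factor, gave 0.424, 0.210, 0.235 and 0.128 Idh3b reads per Idh3a read in Fnip2C/C and 1.63, 0.633, 0.544, 1.55 and 1.498 in Fnip2T/T. Idh3a per Idh3g read, by comparison, overlapped (0.410 to 0.659 against 0.480 to 0.641).

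The next enzyme, the 2-oxoglutarate dehydrogenase complex, has Ogdh as its first component, Dlst as its core and Dld as its last, which it shares with pyruvate dehydrogenase. Ogdh had 1934, 1379, 2793 and 4548 normalized counts in Fnip2C/C and 1060.2, 991, 1229, 856 and 1338 in Fnip2T/T. All Fnip2C/C libraries were higher, mouse 593 by little and mouse 638 by much, and the rise was 2.23-fold (log2 fold change 1.16, SE 0.30, adjusted p = 0.011). Dlst went the other way (log2 fold change -0.85, SE 0.23, adjusted p = 0.0138), with groups that met only at 371. Dld had 144 ± 41.4 against 239 ± 82.6 (log2 fold change -0.71, SE 0.27) and did not pass the test, with an adjusted p of 0.0611 (0.046 and 0.034 without mouse 608 or 609). There were 0.146, 0.142, 0.0927 and 0.0816 Dlst reads per Ogdh read in the Fnip2C/C libraries against 0.553, 0.378, 0.302, 0.623 and 0.472 in Fnip2T/T, a difference of -2.01 on the log2 scale.

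Succinyl-CoA ligase pairs the common subunit Suclg1 with Sucla2 in its ADP form or Suclg2 in its GDP form. Suclg1 had 434, 384, 439 and 488 normalized counts in Fnip2C/C and 633, 578, 755, 587 and 835 in Fnip2T/T, and it fell 1.54-fold (log2 fold change -0.62, SE 0.17, adjusted p = 0.0156). Sucla2 had a similar estimate that did not pass (log2 fold change -0.57, SE 0.23, adjusted p = 0.0768), and Sucla2 per Suclg1 read overlapped between the genotypes (0.524 to 0.821 against 0.491 to 0.809). Suclg2 was scarcely seen in WAT, with 1 to 40 reads a library, and its log2 fold change of -0.27 had an SE of 0.74. Fumarase (Fh1) had the lowest fold change of all (log2 fold change -2.36, SE 0.80, adjusted p = 0.0427), but its libraries overlapped, at 29.4, 4.68, 11.9 and 15.2 in Fnip2C/C and 174, 18.5, 22.3, 72.4 and 307 in Fnip2T/T. The Fh1 call was lost when any of the mice 593, 599, 638, 607, 657 or 658 was left out (adjusted p from 0.0669 to 0.127). Malate dehydrogenase (Mdh2), the last step of the cycle, had 2271 ± 249 and 2341 ± 833 normalized counts (log2 fold change 0.01, 95% interval -0.50 to 0.53). Neither its cytosolic counterpart Mdh1 (log2 fold change -0.24) nor Pcx, which refills the cycle with oxaloacetate (-0.08), passed the test.

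**Figure D2:**
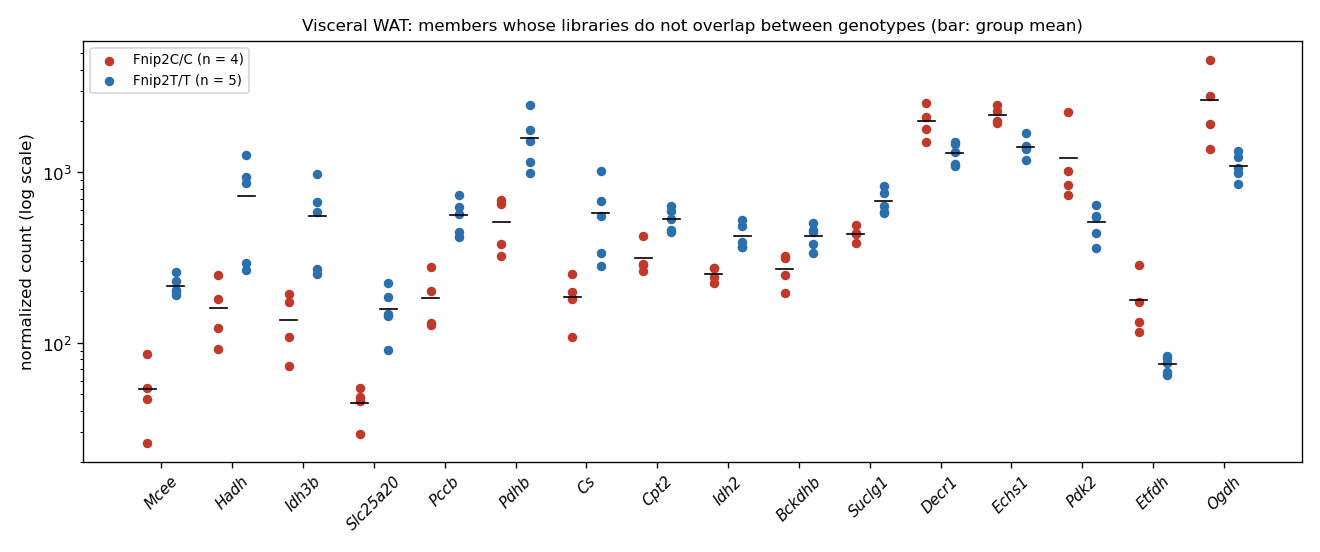
Normalized counts (log axis) in each visceral WAT library of the 16 genes whose libraries did not overlap between Fnip2C/C (red, n = 4) and Fnip2T/T (blue, n = 5), ordered by fold change, with the group mean as a bar. All Fnip2C/C points lie below the Fnip2T/T points for the 11 genes from Mcee to Suclg1 and above them for Decr1, Echs1, Pdk2, Etfdh and Ogdh.

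Entry of pyruvate showed a contrast between subunits too, of which only the lower side passed the test. Pyruvate dehydrogenase joins the E1 subunits Pdha1 and Pdhb to the E2 core Dlat. Pdhb had 687, 321, 651 and 381 normalized counts in Fnip2C/C against 1535, 1143, 996, 1774 and 2474 in Fnip2T/T. It fell 3.10-fold with no overlap (log2 fold change -1.63, SE 0.30, adjusted p = 0.00209). Dlat fell as well (log2 fold change -0.81, SE 0.27, adjusted p = 0.0393), though its libraries overlapped and the call was lost without mouse 593, 638, 607, 657 or 658 (adjusted p from 0.0766 to 0.102). For Pdha1 the mean was higher in Fnip2C/C, 4426 ± 1548 against 2766 ± 813, with an adjusted p of 0.0958 (log2 fold change 0.64, SE 0.28), which became 0.0203 without mouse 593. The libraries of Fnip2C/C mice held 0.178, 0.129, 0.117 and 0.0662 Pdhb reads per Pdha1 read, and those of Fnip2T/T mice 0.642, 0.481, 0.365, 0.821 and 0.593. In Fnip2C/C the highest ratio was thus below the lowest of Fnip2T/T, and the same held for Dlat per Pdha1 (0.0381 to 0.0638 against 0.0975 to 0.213).

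Pyruvate dehydrogenase kinases phosphorylate the E1 alpha subunit and switch the complex off. Pdk2 had 1023, 738, 842 and 2256 normalized counts in Fnip2C/C and 548, 444, 644, 358 and 553 in Fnip2T/T. It rose 2.19-fold in Fnip2C/C, most in mouse 638 (log2 fold change 1.13, SE 0.30, adjusted p = 0.0125). Its paralog Pdk1 had a log2 fold change of 0.29 (SE 0.20, adjusted p = 0.285). Pdk4, the isoform known for its rise in fasting, had 18.8, 2.81, 8.67 and 103 against 1.64, 3.89, 6.70, 4.96 and 18.2, and the 103 came from mouse 638, 1 of the libraries with a high sum of brown adipocyte markers. Its log2 fold change of 1.36 had an SE of 0.84 (adjusted p = 0.234).

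Genes that bring fatty acids into mitochondria were lower where they passed the test. Slc25a20, the carrier that exchanges acylcarnitines for carnitine across the inner membrane, had 54.1, 29.0, 45.5 and 48.0 normalized counts in Fnip2C/C against 186, 143, 90.4, 147 and 225 in Fnip2T/T. This was a 3.46-fold fall with separate groups (log2 fold change -1.79, SE 0.27, adjusted p = 0.00102). Cpt2, which turns the acylcarnitines back into acyl-CoA in the matrix, had 425, 285, 289 and 264 against 592, 457, 631, 448 and 535 and fell 1.70-fold (log2 fold change -0.77, SE 0.19, adjusted p = 0.00928). Cpt1a, the outer membrane enzyme that limits entry in liver, had 71.7, 317, 116 and 258 in Fnip2C/C and 83.7 to 128 in Fnip2T/T (log2 fold change 0.52, SE 0.37, adjusted p = 0.297). Its high Fnip2C/C values came from mice 593 and 638, and the estimate was -0.26 without these and mouse 658 but 0.91 without mouse 590 (adjusted p = 0.0353).

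The steps of beta-oxidation themselves split. Among the acyl-CoA dehydrogenases, ordered here from short to very long chains, Acads rose (log2 fold change 0.88, SE 0.28, adjusted p = 0.0295), with T/T mouse 609 at 1548 inside the Fnip2C/C range of 1334 to 2278, and the call was lost without mouse 638, 607, 608, 657 or 658 (adjusted p from 0.0508 to 0.0911). Acadm (-0.06), Acadl (-0.71) and Acadvl (-0.42) had log2 fold changes that did not pass; without mouse 638 Acadl was at -1.08 (adjusted p = 0.0203). Echs1, the short-chain enoyl-CoA hydratase, had 2480.4, 1956, 2001 and 2296 normalized counts in Fnip2C/C and 1385, 1381, 1698, 1190.0 and 1427 in Fnip2T/T. It rose 1.54-fold without overlap (log2 fold change 0.63, SE 0.18, adjusted p = 0.0172). The following enzyme, Hadh, which oxidizes short- and medium-chain 3-hydroxyacyl-CoA, moved the opposite way and much further. It had 248, 91.7, 122 and 182 in Fnip2C/C against 936, 295, 267, 867 and 1273 in Fnip2T/T, a 4.02-fold fall (log2 fold change -2.01, SE 0.47, adjusted p = 0.00778). There were 0.0469 to 0.10005 Hadh reads per Echs1 read in Fnip2C/C and 0.157 to 0.892 in Fnip2T/T.

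The trifunctional protein, which handles long chains, did not pass in either subunit. Hadha had 1552 ± 459 against 969 ± 289 (log2 fold change 0.69, SE 0.25, adjusted p = 0.0508, and 0.0304 to 0.0448 without mouse 590, 609 or 658), and Hadhb had a log2 fold change of 0.02 (SE 0.43). Hadhb reached 848 in mouse 638 against 168 to 271 in the other Fnip2C/C libraries. The thiolase Acaa2 had a log2 fold change of 0.41 (SE 0.32, adjusted p = 0.351). Of the auxiliary enzymes for unsaturated fatty acids, Decr1, the 2,4-dienoyl-CoA reductase, had 2109.9, 1511, 1797 and 2572 normalized counts in Fnip2C/C and 1097, 1317, 1462, 1115 and 1504 in Fnip2T/T. It rose 1.52-fold, with the highest Fnip2T/T library (1504) just under the lowest Fnip2C/C library (1511) (log2 fold change 0.61, SE 0.20, adjusted p = 0.036), and missed the threshold without mouse 590, 599, 638, 607, 608 or 657 (adjusted p from 0.057 to 0.102). The isomerase Eci1 did not pass (log2 fold change -0.29, adjusted p = 0.269).

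Electrons from the acyl-CoA dehydrogenases pass to the electron transfer flavoprotein (Etfa, Etfb) and then to its ubiquinone oxidoreductase, Etfdh. Etfdh had 174, 115, 132 and 287 normalized counts in Fnip2C/C and 64.8, 81.7, 67.0, 76.4 and 83.4 in Fnip2T/T. It rose 2.22-fold, and the Fnip2T/T libraries lay close together (log2 fold change 1.15, SE 0.25, adjusted p = 0.0047). The flavoprotein subunits did not pass, with log2 fold changes of -0.45 for Etfa and 0.42 for Etfb. Etfa per Etfdh read was 0.369 to 0.655 in Fnip2C/C and 1.119 to 2.42 in Fnip2T/T, while Etfa per Etfb read overlapped (0.0135 to 0.0298 against 0.0267 to 0.0569).

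**Figure D3:**
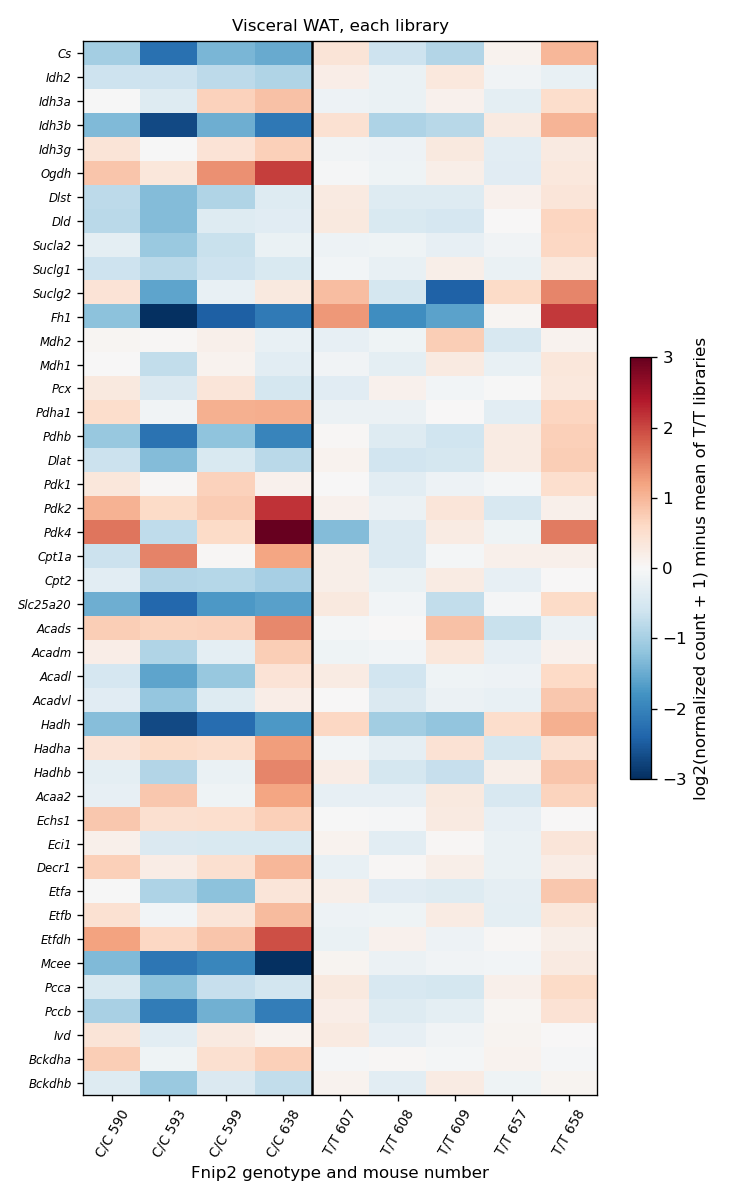
Log2(normalized count + 1) of the 44 genes in each visceral WAT library minus the mean of the Fnip2T/T libraries (columns: Fnip2C/C left, Fnip2T/T right; color scale ends at -3 and 3). Blue in all 4 Fnip2C/C columns marks genes such as Mcee, Pccb, Slc25a20 and Hadh; Pdk4 and Hadhb are high in mouse 638, and Fh1, Idh3b and Hadh differ also among the Fnip2T/T mice.

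Of the genes with the 3 lowest adjusted p, Mcee and Pccb belong to the propionate route, by which odd-chain fatty acids, valine and isoleucine reach succinyl-CoA. Mcee, methylmalonyl-CoA epimerase, had 85.9, 46.8, 54.2 and 25.8 normalized counts in Fnip2C/C and 229, 189.7, 199.8, 204 and 258 in Fnip2T/T. The groups were far apart, with a 4.34-fold fall and the lowest adjusted p among the 44 genes (log2 fold change -2.12, SE 0.28, adjusted p = 0.000636). Pccb, the beta subunit of propionyl-CoA carboxylase, had 278, 126, 202 and 130.0 against 624, 418, 449, 573 and 735. It fell 3.13-fold (log2 fold change -1.65, SE 0.25, adjusted p = 0.00106). The alpha subunit Pcca fell by less (log2 fold change -0.73, SE 0.26, adjusted p = 0.0461), with overlapping libraries, and missed the threshold without mouse 593, 599, 638, 607, 657 or 658 (adjusted p from 0.0615 to 0.119). Reads of Pccb per Pcca read were 1.26 to 2.51 in Fnip2C/C and 3.27 to 4.28 in Fnip2T/T.

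Branched-chain 2-oxo acids are oxidized by a complex whose first component pairs Bckdha with Bckdhb. Bckdhb had 322, 195, 313 and 251 normalized counts in Fnip2C/C and 456, 337, 501, 382 and 448 in Fnip2T/T. It fell 1.59-fold (log2 fold change -0.66, SE 0.20, adjusted p = 0.0211, and 0.0564 without mouse 593). Bckdha had the higher mean in Fnip2C/C, 577 ± 144 against 413 ± 19.7, without passing (log2 fold change 0.44, SE 0.19, adjusted p = 0.0942, and 0.0133 without mouse 593). The ratio of Bckdhb to Bckdha reads was 0.371 to 0.547 in Fnip2C/C and 0.794 to 1.28 in Fnip2T/T. Ivd, the isovaleryl-CoA dehydrogenase of leucine breakdown, had 506 ± 101 and 465 ± 62.2 (log2 fold change 0.11, 95% interval -0.29 to 0.51).

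**Figure D4:**
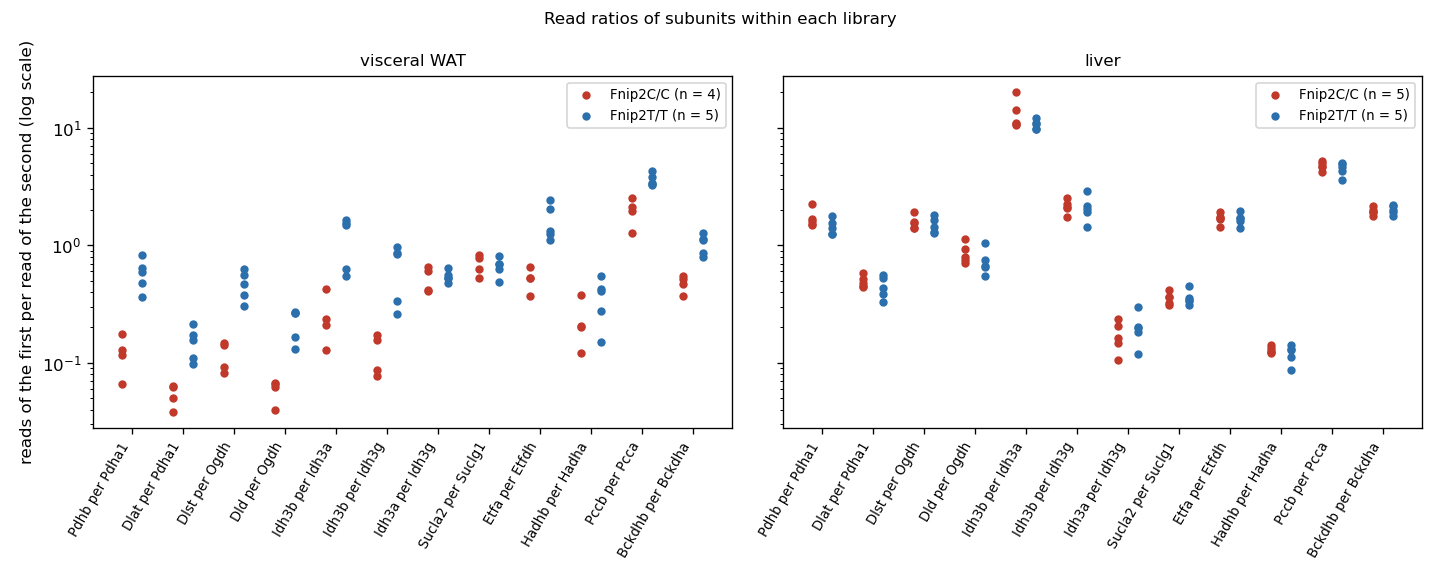
Reads of a gene per read of its partner inside each library (log axis) for 12 pairs of genes of the same complex or electron route in visceral WAT (left) and liver (right), Fnip2C/C red and Fnip2T/T blue. In WAT the red points lie below all blue points for Pdhb and Dlat per Pdha1, Dlst and Dld per Ogdh, Idh3b per Idh3a and per Idh3g, Etfa per Etfdh, Pccb per Pcca and Bckdhb per Bckdha; in liver the colors overlap in every pair.

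Of the 16 pairs compared in this way, 10 did not overlap between the genotypes in WAT, while in liver all 16 overlapped. These ratios are descriptions of the same libraries, chosen with the fold changes known. No share was computed for other pairs of genes. Of all single genes, 26.1% had separate libraries in WAT and 0.248% in liver. An exact two-sided permutation test of single genes gave p = 0.00794, the smallest that 4 against 5 mice allow over 126 groupings, for 12 of the 44 genes. Only genes with separate libraries can reach this p, and 26.1% of all genes in WAT had such libraries. How many of all genes reached it was not counted. Mouse numbers fell into a range under 610 (3 Fnip2C/C, 3 Fnip2T/T) and a range over 630 (1 and 2), and the labels do not say what sets them apart. All 21 called genes kept their sign within both ranges, for example Mcee with log2 fold changes of -1.75 and -3.11, Hadh with -1.57 and -2.53, Ogdh with 0.84 and 2.09 and Slc25a20 with -1.67 and -1.90. For the 16 called genes with separate libraries, Mcee, Hadh, Ogdh and Slc25a20 among them, no subset of mice could change the sign. The only Fnip2C/C mouse in the range over 630 was 638.

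In liver, with the genotypes as labelled, no gene of the routes passed the test. Of all 11710 liver genes 0% passed, and neither edgeR nor DESeq2 on the recovered reads called any. At an unadjusted p under 0.05, limma held 1.97% of all genes (231) and 1 of the 44, Slc22a5, while edgeR held 249 genes and DESeq2 225, in both cases with 0 of the 44. No gene of the 44 had separate libraries in liver, against 0.248% of all genes. Slc22a5, the carnitine transporter, had 14.4, 22.6, 21.9, 15.5 and 15.8 normalized counts in Fnip2C/C and 16.04, 14.3, 3.66, 10.98 and 12.1 in Fnip2T/T, from 3 to 25 reads a library. Its groups overlapped (log2 fold change 0.72, SE 0.34, adjusted p = 1).

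The next 4 by p were Pdhb, Ogdh, Pccb and Pdk1, all with an adjusted p of 1. Liver Pdhb had 705, 686, 721, 639 and 1076 in Fnip2C/C and 744, 701, 677, 665 and 484 in Fnip2T/T (log2 fold change 0.22, SE 0.15), with mouse 639 high. Liver Ogdh, at 311 to 434 against 381 to 505 (log2 fold change -0.17, SE 0.13), and liver Pccb, at 919 to 1109.9 against 837 to 1039.6 (0.15, SE 0.11), had, like Pdhb, estimates of the opposite sign to those in WAT. Pdk1 had 262, 296, 331, 319.7 and 533 against 429, 271, 288, 304 and 159.6 (0.29, SE 0.24). The other 39 genes had liver log2 fold changes between -0.16 and 0.14.

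Liver estimates were also the more precise, with a median SE of 0.13 over the 44 genes against 0.27 in WAT. For Mcee, with 502 to 621 normalized counts in Fnip2C/C livers and 535 to 694 in Fnip2T/T livers, the 95% interval of the log2 fold change was -0.28 to 0.20. For Hadh it was -0.20 to 0.35, for Idh3b -0.14 to 0.37 and for Etfdh -0.53 to 0.25. Over the 21 genes called in WAT the liver intervals stayed within -0.75 and 0.77, both bounds from Fh1, and none of them held the gene's WAT estimate. These genes were chosen by their WAT estimates, whose errors this comparison leaves aside, so it does not test a difference between the tissues.

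The test of the difference between the tissues covered 43 of these genes, those kept in both tables. The genotype effect differed in 20 of them, or 46.5%, against 29.2% of all 10404 genes in that comparison, and 14 of the 20 were lower and 6 higher in WAT than in liver. Mcee led again, with an effect in WAT 2.07 log2 units below that in liver (SE 0.29, adjusted p = 6.46e-05), followed by Pccb (-1.80, SE 0.28, adjusted p = 0.000132), Slc25a20 (-1.77, SE 0.31, adjusted p = 0.000339) and Pdhb (-1.85, SE 0.34, adjusted p = 0.000652). Ogdh (1.33, SE 0.32, adjusted p = 0.00414) and Etfdh (1.29, SE 0.32, adjusted p = 0.00492) led the genes with the higher effect in WAT. Of the 21 genes called in WAT 19 were among the 20, the exceptions being Fh1 (adjusted p = 0.0705) and Decr1 (0.0576), and the last of the 20 was Hadha (0.0376). The fit left the pairing of tissues within 6 mice aside. With the mouse as a replicate block 17 were called, and Acads (adjusted p = 0.064), Hadha (0.0524) and Pcca (0.0539) were lost. Calls of 8 of the 20, Hadha among them, depended on single mice, and leaving out mouse 607 left 13 genes called. The share of all genes called in these other fits is not given here.

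**Figure D5:**
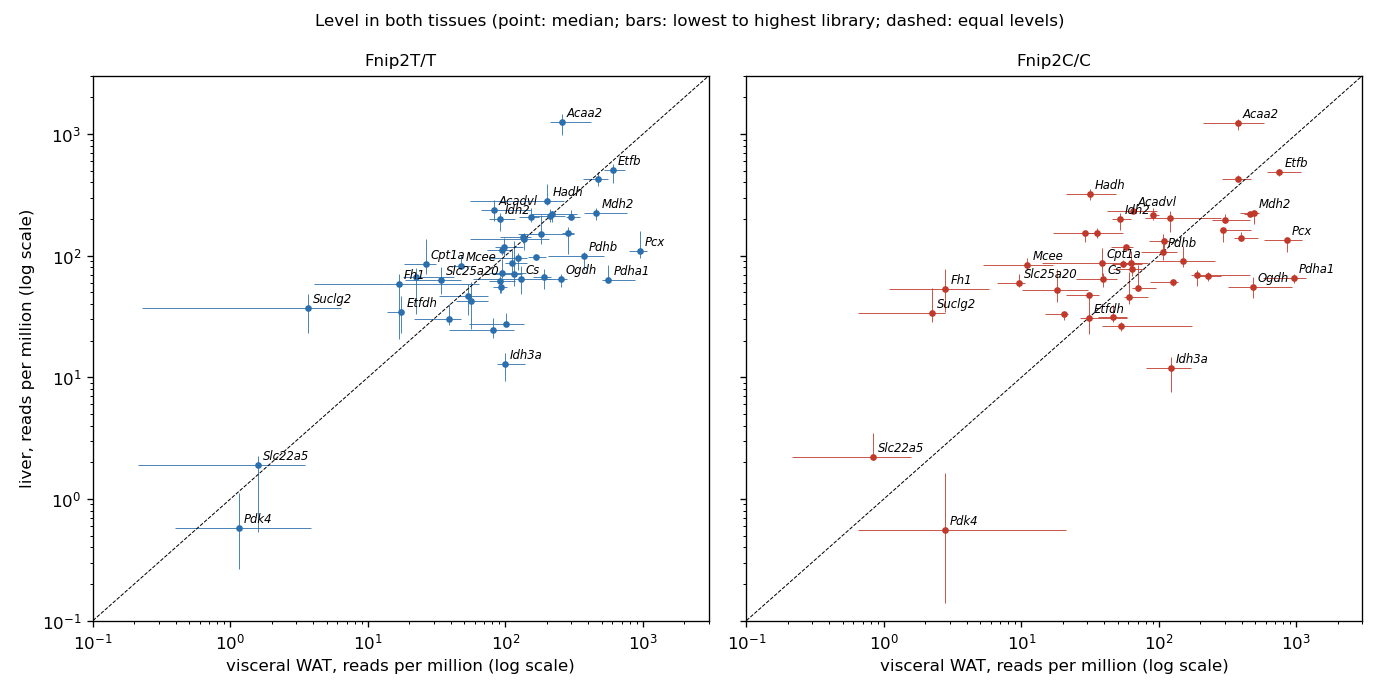
Median RPM, from recovered reads, in visceral WAT (x) and liver (y), both on log axes, for Fnip2T/T (left) and Fnip2C/C (right); bars span the lowest to the highest library and the dashed line marks equal levels. Acaa2 and Suclg2 lie above the line and Pdha1, Pcx and Idh3a below it in both panels, and Hadh and Mcee move left in Fnip2C/C.

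Levels in the tissues were set side by side as RPM (recovered reads of a gene scaled to the same total in each library), with no test, since each table had been normalized alone. In 7 of 45 genes all livers lay above all WAT libraries (Suclg1, Mcee, Slc25a20, Idh2, Acadvl, Acaa2 and Suclg2), in 10 all WAT libraries lay above all livers (Pdha1, Pcx, Idh3a, Ogdh, Hadhb, Idh3g, Mdh2, Decr1, Bckdha and Echs1), and 28 overlapped. The thiolase Acaa2 had 988 to 1449 RPM in Fnip2T/T liver and 210 to 420 in Fnip2T/T WAT, and Suclg2 had 22.9 to 48.8 against 0.229 to 6.37. Pdha1 had 60.2 to 83.7 in Fnip2T/T liver and 502 to 877 in WAT. The ratio of liver to WAT medians depended on genotype through the WAT values: for Hadh it was 1.39 in Fnip2T/T and 10.3 in Fnip2C/C, for Idh3b 1.012 and 5.29, for Pccb 1.07 and 4.33, for Mcee 1.73 and 7.60 and for Etfdh 1.96 and 0.993.

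A further 74 genes of the same routes, among them succinate dehydrogenase, mitochondrial pyruvate carriers, other acyl-CoA enzymes, ketone body enzymes and transcriptional regulators, gave a lower share. In WAT 71 were tested, of which 4 rose and 15 fell, which is 26.8% against 32.1% of all genes, with a median log2 fold change of -0.17. The 4 that rose were Crat, which moves acetyl groups onto carnitine (log2 fold change 1.03, SE 0.22, adjusted p = 0.00468), Nnt, the proton-driven transhydrogenase (1.28, SE 0.29, adjusted p = 0.00639), Bckdk, the kinase that inactivates the branched-chain complex (0.57, SE 0.16, adjusted p = 0.0155), and Acad12 (0.69, SE 0.22, adjusted p = 0.0297). Acad12 missed the threshold without mouse 590, 599 or 658 (adjusted p from 0.0666 to 0.0912). Among those with the lowest p that fell were Acad11, an acyl-CoA dehydrogenase (-1.24, SE 0.24, adjusted p = 0.00281), Sirt3, the main mitochondrial deacetylase (-1.08, SE 0.21, adjusted p = 0.00293), Eci2, an enoyl-CoA isomerase (-0.998, SE 0.21, adjusted p = 0.00435), and Mccc2, of leucine breakdown (-1.46, SE 0.31, adjusted p = 0.00468). In liver none of the 69 tested passed with limma, and 1 had an unadjusted p under 0.05.

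Promoters of genes that moved differently are shown for a motif linked to nuclear genes of mitochondria, that of nuclear respiratory factor 1, spelled as GCGC, any base, TGCGC and read on both strands. RefSeq sequences (GRCm38.p6, 250 bases before to 50 after the gene start) were matched for 42 of the 46 genes, and 6 of the 42 (14.3%) held it, against 11.4% of the genes tested in WAT and 5.19% of all genes with a sequence. The windows below have the motif in capitals. They are from Etfdh, which rose, from Pccb, which fell, and from Etfb and Sucla2, which did not pass. Among the windows shown, the motif thus stood before genes of both directions, and no factor's binding was measured here. Not all of the 6 genes are shown. Slc22a5, which was below the minimum mean in WAT, also held the motif, and the window of the remaining gene is not reported here.
Etfdh, chr3:79628876-79628905, minus strand, motif from base -128: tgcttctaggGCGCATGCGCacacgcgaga
Pccb, chr9:101034934-101034963, minus strand, motif from base -69: cagcgacgacGCGCAGGCGCagactcgcaa
Etfb, chr7:43444051-43444080, plus strand, motif from base -11: gtgttgcggcGCGCAGGCGCagagacagat
Sucla2, chr14:73552759-73552788, plus strand, motif from base -17: ctgcgtctctGCGCCTGCGCggtgcccagg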

How the data were processed

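Libraries were made from 500 ng (visceral WAT) or 250 ng (liver) of RNA with a QuantSeq FWD kit, which primes on the poly(A) tail and keeps the strand, so a gene's count does not grow with transcript length. The 76 labelled samples are 19 libraries with 4 runs each, and each library has 1 column. The authors deposited 1 table per tissue of signal values, which are read counts divided by a size factor of each library, each table normalized alone. The submitters' processing notes name FastQC 0.11.9, HISAT2, SAMtools 1.12, HTSeq, DESeq2 and build GRCm39, without order. Dividing by each library's smallest step recovered whole reads for 100% of values within 1e-08. No column was used that the labels do not describe, which left out 1. The labels do not say how the mice were bred or housed, so p-values measure the spread between these mice.

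Members and gene lists were chosen with earlier results of these data known. Samples were grouped by labelled genotype and tissue. Log2(value + 1) was fitted with limma 3.58.1 in R 4.3.3 (lmFit, eBayes with trend and robust options) for genes with a mean of at least 10, with Benjamini-Hochberg adjustment over all genes tested, per tissue and for the interaction of genotype and tissue. Fold changes on this scale understate changes of low genes. Single genes were also compared by an exact two-sided permutation test (126 groupings in WAT, 252 in liver). Numbers pair samples because 6 mice (2 Fnip2C/C, 4 Fnip2T/T) gave both tissues; the consensus correlation within mice was -0.11. Named were all members, with values per library for called WAT members without overlap, the 5 lowest p in liver, and the 5 lowest p in each direction of the further genes, of which 1 is not reported here. The fits were tested on simulated data. Alternatives were pseudocounts of 0.5 and 10, no filter or a minimum mean of 50, quantile normalization, equal totals, library weights, a term for mouse numbers, a threshold of 0.1, each mouse left out, and edgeR 4.0.16 (quasi-likelihood, TMM) and DESeq2 1.42.0 on the recovered reads.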

Additional observations from a re-analysis of the deposited data

Results flagged for a closer look

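The genotype effect differed between the tissues in 20 genes by the interaction test of limma (adjusted p under 0.05). As log2 effect in WAT minus that in liver, with adjusted p, the lower ones were Mcee -2.07 (6.46e-05), Pccb -1.80 (0.000132), Slc25a20 -1.77 (0.000339), Pdhb -1.85 (0.000652), Idh3b -2.02 (0.00258), Hadh -2.09 (0.00597), Cs -1.55 (0.00878), Idh2 -0.79 (0.00974), Bckdhb -0.74 (0.0124), Suclg1 -0.67 (0.0146), Dlat -0.95 (0.0227), Dlst -0.76 (0.0254), Cpt2 -0.75 (0.0256) and Pcca -0.78 (0.0456). The higher ones were Ogdh 1.33 (0.00414), Etfdh 1.29 (0.00492), Pdk2 1.28 (0.0179), Echs1 0.58 (0.0260), Hadha 0.78 (0.0376) and Acads 0.90 (0.0462). With the mouse as a replicate block Acads (0.064), Hadha (0.0524) and Pcca (0.0539) were not called. Of the 20 calls, 8 were lost when 1 of several mice was left out: Pdk2 without 638 (adjusted p = 0.0576), Dlat without 593, 607 or 657 (up to 0.0661), Dlst without 593, 607, 657 or 658 (up to 0.08), Cpt2 without 607, 638, 658 or 659 (up to 0.0911) and Echs1 without 590, 607, 638 or 657 (up to 0.0786). Hadha was lost without 591, 607, 608, 638 or 657 (up to 0.12), Pcca without 591, 593, 599, 607, 638, 639, 657, 658 or 659 (up to 0.12), and Acads without 590, 591, 592, 607, 638, 639, 657, 658 or 659 (up to 0.147).

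Single libraries lay far from the rest of their group in 14 of 176 groups examined, and chance alone flags about 1 in 20. In WAT, Fnip2C/C mouse 638, with the highest sum of brown adipocyte markers, had 103 normalized counts of Pdk4 (next 18.8), 2278 of Acads (next 1401), 2235 of Hadha (next 1382) and 848 of Hadhb (next 271). Fnip2T/T mouse 658, with the next highest sum of these markers, had 676 of Sucla2 (next 407), 4174 of Pdha1 (next 2726) and 728 of Acadvl (next 417). The part of the markers in these values was not tested. Fnip2C/C mouse 590 had 425 of Cpt2 (next 289) and 486 of Eci1 (next 322). In liver, Fnip2C/C mouse 639 had 1076 of Pdhb (next 721) and 533 of Pdk1 (next 331), Fnip2C/C mouse 590 had 525 of Dlst (next 599.8), and among Fnip2T/T mice 607 had 938 of Pdk2 (next 496) and 659 had 1211 of Acadl (next 1495).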

How the results depend on the processing

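All 21 genes called in WAT kept their sign under every alternative, and 14 kept their call under all of them except those that leave out several mice together. With any single mouse left out, 15 kept it. For the 16 genes with separate libraries, leaving out mice could not change the sign. The number called in WAT ranged from 16 to 27 over the alternatives listed with the methods, and from 16 to 23 with a mouse left out. Without mice 593, 638 and 658 together, an alternative chosen after seeing the data, 9 genes were called in all, 5 of the lower ones, and 9 instead of 19 of the further genes. With mouse 609 left out too, also chosen after seeing the data, 15 genes were called, 7 of them lower, and 11 of the further genes. DESeq2 called 10 genes higher instead of 6. The interaction called 17 genes instead of 20 with the mouse as a replicate block, which ended the calls of Acads, Hadha and Pcca, and 13 to 23 with a mouse left out (13 without mouse 607); no other count of called genes had a fit with the block. The cause of these shifts was not tested, but leaving out mice also leaves fewer samples. The share of all genes called in WAT shifted as well. It was 32.1% in the main fit, 9.95% without mice 593, 638 and 658, and 16.1% without mouse 609 too. For the other fits that share is not given here, so their counts do not tell these genes from all genes.

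Signs changed only in genes that did not pass the test. Leaving out single mice gave log2 fold changes of -0.88 to 0.16 for Suclg2 in WAT, -0.11 to 0.20 for Mdh2 in WAT, -0.22 to 0.073 for Pcx in WAT, -0.33 to 0.21 for Acadm in WAT and -0.45 to 0.33 for Hadhb in WAT. Without the 3 mice together, Suclg2 was at 0.46, Mdh1 at 0.14, Pcx at 0.41, Cpt1a at -0.26, Hadhb at -0.032 and Acaa2 at -0.018. Without 609 as well, Mdh1 in WAT was at 0.26, Pcx at 0.41, Cpt1a in WAT at -0.27, Acadm at 0.11 and Hadhb at -0.20. Quantile normalization gave -0.20 for Mdh2, -0.086 for Hadhb and -0.028 for Ivd, equal totals -0.064 for Mdh2 and -0.052 for Hadhb, library weights 0.14 for Pcx and -0.25 for Hadhb, and the term for mouse numbers -0.034 for Mdh2. edgeR gave -0.066 for Mdh2 and 0.017 for Acadm, and DESeq2 -0.042 and 0.047. In WAT the widest errors were those of Pdk4, Fh1 and Suclg2, which had few reads (SE 0.84, 0.80 and 0.74). In liver they were those of Fh1 and Slc22a5 (SE 0.34 each).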

Other observations

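Among the other genes of these routes that fell in Fnip2C/C WAT (limma) were the pyruvate carrier subunit Mpc2 (log2 fold change -1.84, adjusted p = 0.00683) and Mmut, the mutase that acts after Mcee (-1.10, adjusted p = 0.00773). Also lower were Dbt, the core of the branched-chain complex (-0.93, adjusted p = 0.0111), Sdhb, a subunit of succinate dehydrogenase (-0.89, adjusted p = 0.0146), and Esrra, a nuclear receptor that acts on genes of oxidative metabolism (-0.82, adjusted p = 0.0182). The succinate dehydrogenase subunits Sdha and Sdhc did not pass (adjusted p = 0.068 and 0.0524). Of the 10 transcriptional regulators tested, 8 were not called. With Mcee, Pcca, Pccb and Mmut, all 4 genes of the steps from propionyl-CoA to succinyl-CoA were lower; these genes were picked with their values known.

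Across the 44 genes in WAT, the log2 fold change had a Spearman correlation of 0.240 with transcript length and 0.129 with the GC content of the last 500 bases of the transcript, against 0.153 and 0.0289 over 11322 coding genes. Genes are not independent replicates, and these values come from the same 9 libraries.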
